A study of Mus musculus with 2 samples.

Results

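The 6 genes described here, Six2, Six4, Alx1, Alx4, Prrx1 and Prrx2, encode homeobox transcription factors of the developing face and skull, and they were followed by gene symbol through the single-cell transcriptomes of the wild-type mouse coronal suture. They were 6 of the 31053 genes listed for the E15.5 library and 6 of the 27998 listed for the E17.5 library, and the identifier behind each symbol was the same in both lists. Both libraries came from C57/BL6 embryos labelled wildtype, with no treatment given. The E15.5 library held pooled sutures digested with Collagenase II and Dispase and cleared of dead cells. The E17.5 library joined batches digested with Collagenase IV and sorted by flow cytometry. These batches came from different litters, but some of them shared a litter. The 15 clusters deposited with the data lie in osteogenic cells (OG1 to OG4, with the proliferating PO1 and PO2), a ligament-like layer (LIG), ectocranial layers (EC1 to EC4) and meningeal layers (MG1 to MG4).

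Six2 and Six4 proteins carry another conserved domain before their homeodomain and work with co-activators of the Eya family and co-factors of the Dach family. Alx and Prrx proteins have paired-type homeodomains. Alx genes are known for their part in frontonasal and skull vault development, and Prrx1 is widely used to mark limb and cranial mesenchyme. Six2 is best known from nephron progenitors and is also used to label suture mesenchyme.

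The labels covered 5335 cells of the E15.5 library, with 48607817 unique molecular identifiers (UMIs, each standing for 1 captured RNA molecule), and 6830 cells of the E17.5 library, with 92585034. The median labelled cell held 8510 UMIs at E15.5 and 12302 at E17.5. Levels are given as the UMIs of a gene summed over the cells of a cluster and divided by all UMIs of those cells, then multiplied by 1000000 (CPM). Intervals in brackets are exact 95% Poisson intervals for levels, exact conditional intervals for ratios and Clopper-Pearson intervals for shares of cells, and all cover counting error only. There was 1 deposited matrix per stage and no replicate of either, so no p-value was computed. The E17.5 barcodes carry 3 suffixes, of 1234, 2770 and 2826 labelled cells, which were used as a view of the spread within that library. Which suffix belongs to which batch is not recorded in the labels. MG1 had no cells with suffix 1 and MG4 had 7, so these clusters rest on suffixes 2 and 3. Between the libraries, 42 barcode sequences of labelled cells were shared, 0.787% of those at E15.5. Embryonic stage, enzyme, sorting, litters and gene list changed together from one library to the other, and their effects cannot be told apart.

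In the GRCm38 annotation, Six2 lies on chromosome 17 from 85684277 to 85688274 on the minus strand, with Six3 55.0 kb away. Six4 lies on chromosome 12 from 73099609 to 73113456 and is also on the minus strand. Alx1 lies on chromosome 10 from 102998707 to 103030215 on the minus strand, and Alx4 on chromosome 2 from 93642384 to 93681339 on the plus strand, where its span overlaps that of Ext2 on the minus strand. Prrx1 lies on chromosome 1 from 163245119 to 163313710 on the minus strand and Prrx2 on chromosome 2 from 30834972 to 30881251 on the plus strand. Unnamed gene models overlap Alx1 and Prrx1 on the same strand, and the reads of such overlaps may be split or lost in counting.

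The upstream sequences of Six2, Prrx1 and Prrx2 are shown because the cluster patterns of Six2 and Prrx1 ran in opposite directions and those of the 2 Prrx paralogs differed from each other. Each line gives the 250 bases before the RefSeq start in GRCm38.p6, written 5′ to 3′ on the gene's strand. The Six2 stretch is chr17:85688255-85688504, the Prrx1 stretch chr1:163313651-163313900 (both minus strand) and the Prrx2 stretch chr2:30845117-30845366 (plus strand). The RefSeq starts differ from those of the gene spans given above. The Prrx2 stretch lies wholly inside its span, downstream of the start annotated there, and the Six2 and Prrx1 stretches overlap the 5′ ends of theirs. Capitals mark the letters TAAT on either strand (TAAT or ATTA), the core of many homeodomain binding sites, with overlapping matches counted separately.
Six2: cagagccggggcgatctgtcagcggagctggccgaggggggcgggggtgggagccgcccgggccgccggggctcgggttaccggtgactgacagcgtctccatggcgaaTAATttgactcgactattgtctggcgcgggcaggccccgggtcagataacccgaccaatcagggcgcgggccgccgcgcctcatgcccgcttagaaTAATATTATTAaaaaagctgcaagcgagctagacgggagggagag
Prrx1: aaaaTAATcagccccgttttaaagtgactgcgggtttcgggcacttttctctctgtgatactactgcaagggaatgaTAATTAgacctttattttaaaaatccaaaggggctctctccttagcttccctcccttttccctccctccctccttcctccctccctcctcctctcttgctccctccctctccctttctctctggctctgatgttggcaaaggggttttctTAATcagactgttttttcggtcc
Prrx2: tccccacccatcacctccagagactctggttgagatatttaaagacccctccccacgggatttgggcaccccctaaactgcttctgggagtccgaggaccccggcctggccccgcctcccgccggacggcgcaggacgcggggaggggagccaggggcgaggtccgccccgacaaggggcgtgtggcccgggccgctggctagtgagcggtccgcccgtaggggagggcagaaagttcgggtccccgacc
The Six2 stretch held 4 matches, of which those at its 3′ end ran into each other, and the Prrx1 stretch also held 4. The Prrx2 stretch held 0, which says only that these letters are not in this window. Of 32851 promoter entries in the RefSeq table, 54.9% held at least 1 match in the same window and 9.62% held 4 or more. GC content was 64.8% for Six2, 47.6% for Prrx1 and 70.0% for Prrx2, beside a median of 52.4% over all entries. Promoter entries were found for 4 of the 6 genes.

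Six2 was most abundant in the meningeal clusters at both stages. At E15.5 its level was 62.1 CPM [51.5, 74.1] in MG3, 56.9 [48.7, 66.2] in MG2, 37.6 [24.3, 55.5] in MG4 and 26.7 [10.7, 55.1] in MG1, the last from 7 UMIs. Outside the meninges at that stage, OG3 held 16.2 CPM, OG1 14.6 and LIG 13.3, and the other 8 clusters lay between 1.41 and 6.20 CPM. At E17.5 the order of the meningeal clusters changed, with 85.5 CPM [77.5, 94.2] in MG2 and 85.4 [77.8, 93.4] in MG1 ahead of MG3 at 71.1 [59.96, 83.6]. MG4 and OG1 then stood side by side, at 42.1 CPM [33.4, 52.4] and 41.7 [38.2, 45.6], followed by PO1 at 34.8 and LIG at 28.8. The lowest cluster at E17.5 was OG4, the mature osteoblasts, at 7.43 CPM [5.87, 9.27]. No neighbouring pair in the E15.5 order had separate intervals. At E17.5 only MG3 lay apart from the next cluster below it, as did OG2, the twelfth in the order, from EC2 below it.

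**Figure D1:**
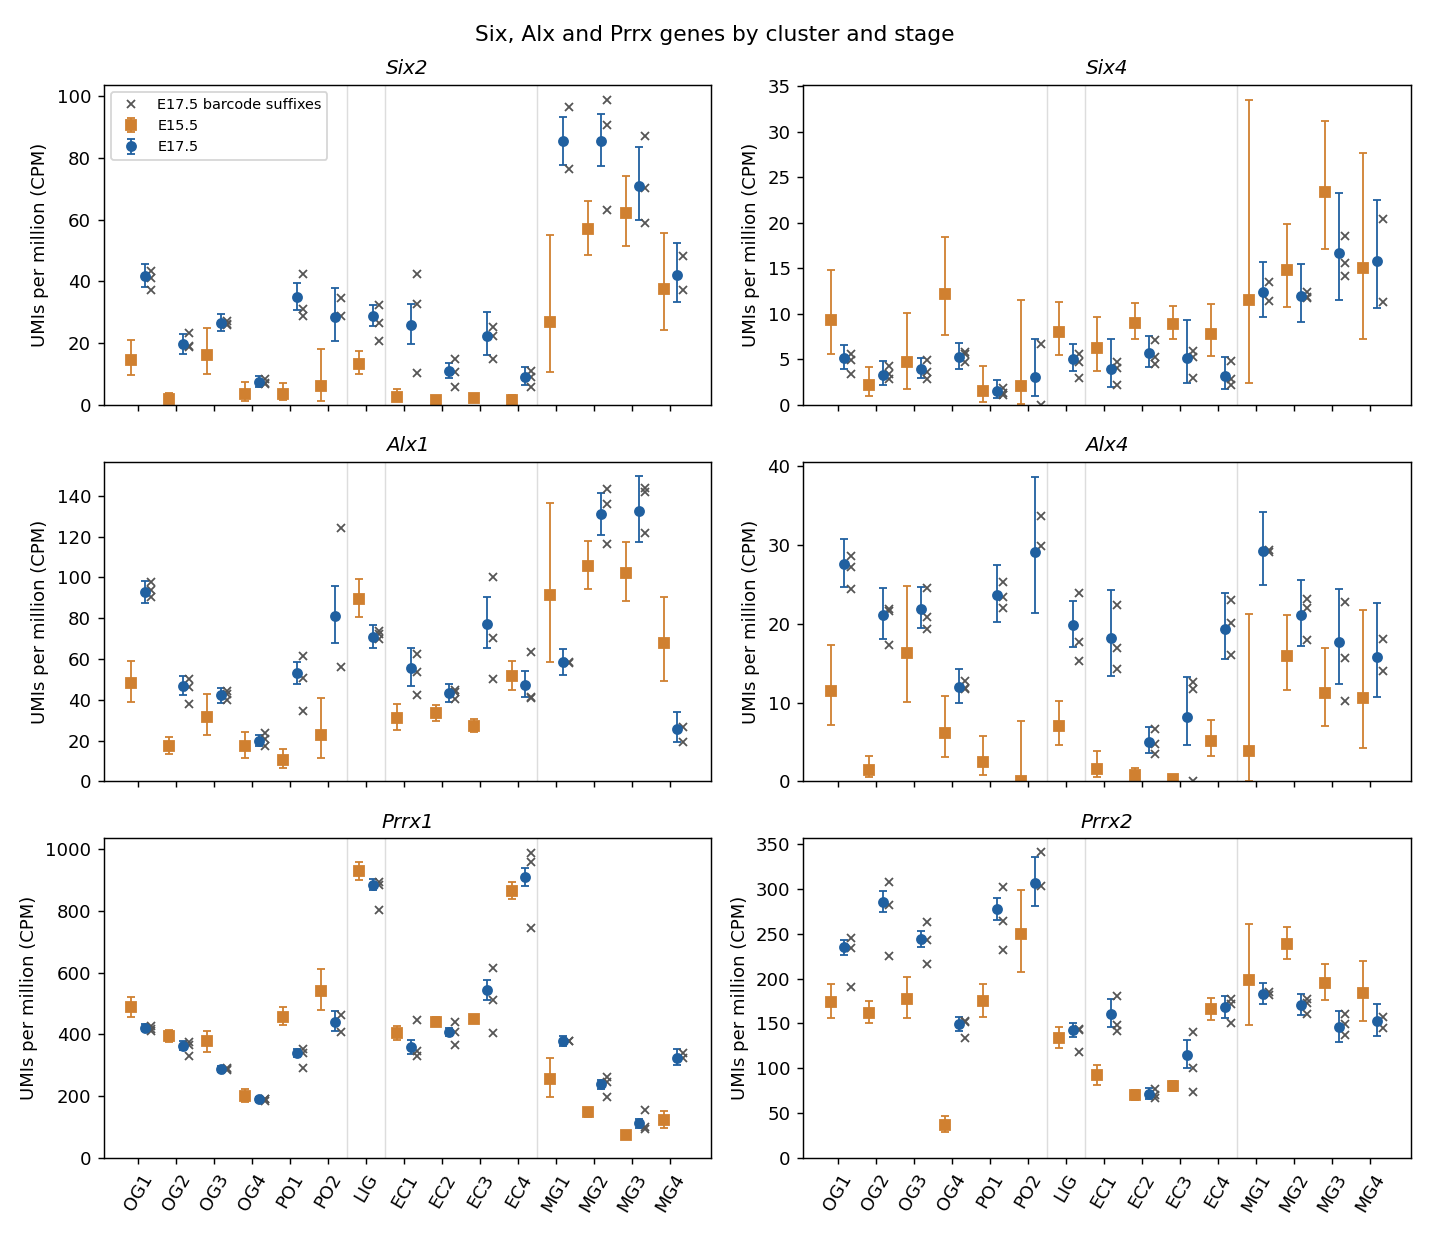
Level of each gene (CPM, linear axes from 0) in the 15 deposited clusters at E15.5 (squares) and E17.5 (circles), with exact 95% Poisson intervals; crosses are single E17.5 barcode suffixes with at least 20 cells of the cluster. Alx1 stands highest in MG2 and MG3 and Six4 in MG3 at both stages, whereas Prrx1 is lowest in MG3 and at least 865 CPM in LIG and EC4.

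OG1, the osteoprogenitor cluster of which Six2 is used as a marker, was above other labelled cells by a smaller factor than MG1, MG2 and MG3 were. MG4, at a ratio of 3.80 at E15.5, was at 1.32 at E17.5, about that of OG1. The ratio of OG1 to all other labelled cells was 1.44 [0.947, 2.11] for E15.5 and 1.36 [1.23, 1.49] for E17.5. With the other 14 clusters given equal weight it was 0.866 at E15.5 and 1.18 at E17.5. The suffixes placed Six2 in OG1 at 37.0, 43.4 and 41.2 CPM. A Six2 UMI was found in 24 of 261 OG1 cells at E15.5, 9.20% [5.98, 13.4], and in 35.9% [33.0, 39.0] of 1010 at E17.5, where cells were deeper (median 6836 and 10896 UMIs). With every cell thinned to 3000 UMIs, which kept 233 and 1010 cells, the shares were 4.29% [2.08, 7.75] and 10.8% [8.95, 12.9]. Thinned MG2 cells held Six2 in 14.96% and 20.9%. In myeloid-like cells, which should lack the gene, the thinned share was 1.82% [0.736, 3.72] of 384 cells and 0.716% [0.195, 1.82] of 559.

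Within OG1, cells with a Six2 UMI were not more frequent among cells with UMIs of the other osteoprogenitor markers beyond counting error. At E17.5, after thinning, Six2 was found in 24 of 228 OG1 cells with Erg, 10.53% [6.86, 15.3], and in 10.9% [8.77, 13.3] of 782 without it. Beside Pthlh, the parathyroid hormone-related peptide gene, the shares were 14.9% [9.06, 22.5] of 121 cells and 10.2% [8.32, 12.4] of 889. With Sp7, the osteoblast factor, they were 11.7% [7.59, 17.1] and 10.6% [8.54, 12.9]. At E15.5 the thinned OG1 cells held Erg in 6 cells and Pthlh in 8, too few to compare. At about 1 Six2 UMI in 10 thinned cells, a difference smaller than these intervals was not detectable at this depth.

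Six4 also stood highest in the meninges. Its level was highest in MG3, with 23.4 CPM [17.1, 31.2] at E15.5 and 16.7 [11.5, 23.3] in the later library, and second in MG4, at 15.05 and 15.8 CPM. The lowest cluster was PO1 at both stages, at 1.47 CPM from 3 UMIs and 1.51 CPM from 11. Its levels in myeloid-like cells were 3.65 CPM [2.00, 6.12] at E15.5 and 0.527 [0.109, 1.54] at E17.5, so that 6 of 15 clusters lay clear of that background at E15.5 and 13 at E17.5. Outside the meninges, OG4 at E15.5 reached 12.2 CPM [7.62, 18.4], and its E17.5 level was 5.24.

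Alx1 was high in MG2 and MG3 at both stages and in several other places. MG2 held 105 CPM [94.1, 118] at the earlier stage and 131 [121, 142] at the later, and MG3 102 [88.6, 117] and 133 [117, 150]. At E15.5 MG1, at 91.6 CPM, and LIG, at 89.5, came next, followed by MG4 at 67.7, EC4 at 51.8 and OG1 at 48.4. At E17.5 the third place was taken by OG1, at 92.7 CPM [87.3, 98.3], with the 3 suffixes at 97.6, 90.6 and 93.6. MG1 was at 58.3 CPM [52.1, 65.0] at E17.5, below OG1, PO2, EC3 and LIG. MG4 was then at 25.8 CPM [19.1, 34.1] and only OG4, at 19.8 [17.2, 22.7], was lower. The lowest Alx1 level at E15.5 was in PO1, at 10.3 CPM [6.37, 15.7].

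Alx4 was sparse at E15.5, with 207 UMIs in all labelled cells against 1822 at E17.5. At E15.5 its highest levels were 16.2 CPM [10.0, 24.8] in OG3, 15.8 [11.6, 21.1] in MG2, 11.4 [7.17, 17.3] in OG1 and 11.2 [7.01, 16.9] in MG3. PO2 held 0 Alx4 UMIs at that stage, where 3 counts would be 6.20 CPM and the exact upper limit is 7.62, and EC3 held 3. At E17.5 the levels were flatter, from 29.2 CPM [24.9, 34.1] in MG1, 29.0 [21.3, 38.6] in PO2 and 27.5 [24.6, 30.7] in OG1 down to 8.12 in EC3 and 5.03 [3.59, 6.85] in EC2. No neighbouring pair in either order had separate intervals.

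Prrx1 was found in every cluster, with the ligament-like and EC4 cells far above the rest. LIG held 928 CPM [898, 958] at E15.5 and 885 [866, 904] in the later library, and EC4 865 [837, 894] and 909 [881, 937], while no other cluster passed 544 CPM. The 3 E17.5 suffixes gave 801, 894 and 883 CPM in LIG and 745, 958 and 988 in EC4. After thinning, a Prrx1 UMI was found in 91.5% (E15.5) and 91.6% (E17.5) of LIG cells. MG3 was lowest, at 73.8 CPM [62.2, 86.8] and 112 [98.2, 128], and at E15.5 its interval overlapped that of myeloid-like cells, at 67.5 CPM [59.5, 76.3]. Within the osteogenic clusters, OG4 was lowest at both stages, at 201 CPM [181, 223] and 190 [182, 199].

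Prrx2 followed another order. PO2, the mitotic osteogenic cells, had the highest value at both stages, with 250 CPM [207, 299] and 307 [280.5, 335]. Its interval overlapped that of the next cluster at each stage, and at E15.5 it held 35 cells. At E15.5 the next clusters were MG2 at 239 CPM [222, 257], MG1 at 198, MG3 at 195 and MG4 at 184, and OG4 was lowest at 37.0 CPM [28.7, 47.0]. At E17.5 the osteogenic clusters OG2, PO1, OG3 and OG1 followed PO2, at 285, 277, 244 and 235 CPM, and EC2 was lowest at 71.7 CPM [65.9, 77.8]. In myeloid-like cells Prrx2 was at 22.9 CPM at E15.5 and 23.5 at E17.5, below all 15 clusters in both libraries.

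The balance of the Prrx paralogs, which needs no scaling for depth, was highest in MG3 and lowest in LIG at both stages. At E15.5 there were 2.65 Prrx2 UMIs per Prrx1 UMI in MG3 [2.18, 3.23], 1.62 in MG2 [1.43, 1.82] and 1.49 in MG4 [1.12, 1.99]. MG1 was at 0.776 [0.530, 1.13]. Prrx1 in MG3 at E15.5, at 73.8 CPM [62.2, 86.8], was not clear of the 67.5 [59.5, 76.3] in myeloid-like cells. The MG3 balance at that stage is therefore set against a Prrx1 level not told from background. LIG was at the other end with 0.145 [0.132, 0.158], close to EC2 at 0.160, EC3 at 0.178 and OG4 at 0.184. At E17.5 MG3 remained highest at 1.30 [1.09, 1.55] and LIG lowest at 0.161 [0.152, 0.170]. The osteogenic clusters moved up between the libraries, OG1 from 0.358 to 0.557 and OG4 from 0.184 to 0.785, and MG2 moved down, from 1.62 to 0.717. The balance also rose in myeloid-like cells. They held 88 Prrx2 and 259 Prrx1 UMIs in the earlier library, then 134 and 171 in the later one. Whether the osteogenic shift goes beyond that of this background was not tested. In the later library MG1 (0.484) and MG4 (0.472) lay below all 6 osteogenic clusters (0.557 to 0.845) and near EC1 (0.449), so the layers overlapped.

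Enrichment was called where the CPM of a gene in a cluster reached 2 times its CPM over the remaining labelled cells, in each library. The authors defined the clusters on these same cells, so such calls describe and do not test. Of the 90 gene and cluster pairs, 8 were called, from 4 genes. Over all 9663 genes with at least 200 labelled UMIs in each library, 1.51% of pairs were called and 16.4% of genes were called somewhere. Six2 was called in MG1, MG2 and MG3, at ratios of 2.62, 7.85 and 7.66 in the E15.5 library and of 2.96, 2.92 and 2.27 in the later one. The E15.5 ratio of MG1 came from 7 UMIs in 28 cells, and its interval [1.05, 5.44] reached below the limit. Alx1 was called in MG2, at 2.67 and 2.35 times, and MG3, at 2.49 and 2.29. Six4 was called in MG3, at 2.89 [2.08, 3.94] and 3.08 [2.11, 4.37]. Prrx1 was called in LIG, at 2.18 and 2.44 times, and in EC4, at 2.01 and 2.34, the former EC4 value being just over the limit. The shares of all genes called were 1.19% for MG1, 1.98% for MG2, 2.85% for MG3, 0.548% for LIG and 1.03% for EC4. Alx4 and Prrx2 were called nowhere. Pooling the meningeal clusters, Six2 stood 13.3 times [11.05, 16.1] above the remaining cells in the earlier library and 3.25 times [3.01, 3.50] in the later one.

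Six2 and Alx4 were higher at E17.5 over most of the suture. In many clusters their E15.5 levels were not told from background, as given below. The mean of the 15 clusters with equal weight went from 16.7 to 35.9 CPM for Six2, a ratio of 2.16 [1.89, 2.46], and from 6.26 to 19.3 CPM for Alx4, a ratio of 3.08 [2.57, 3.69]. Alx1 went from 49.8 to 65.2 CPM (ratio 1.31 [1.21, 1.41]), Prrx2 from 156 to 187 (1.20 [1.15, 1.26]), Prrx1 from 410 to 413 (1.01 [0.984, 1.03]) and Six4 from 9.10 to 6.78 (0.745 [0.619, 0.897]). With a limit of 1.5-fold, 2 of the 6 genes were past it upward and 0 downward, against 8.55% and 13.6% of all genes tested, whose median ratio was 1.01. For Six2 the suffixes gave 1.52, 2.50 and 2.12, and for Alx4 2.48, 2.95 and 3.27.

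**Figure D2:**
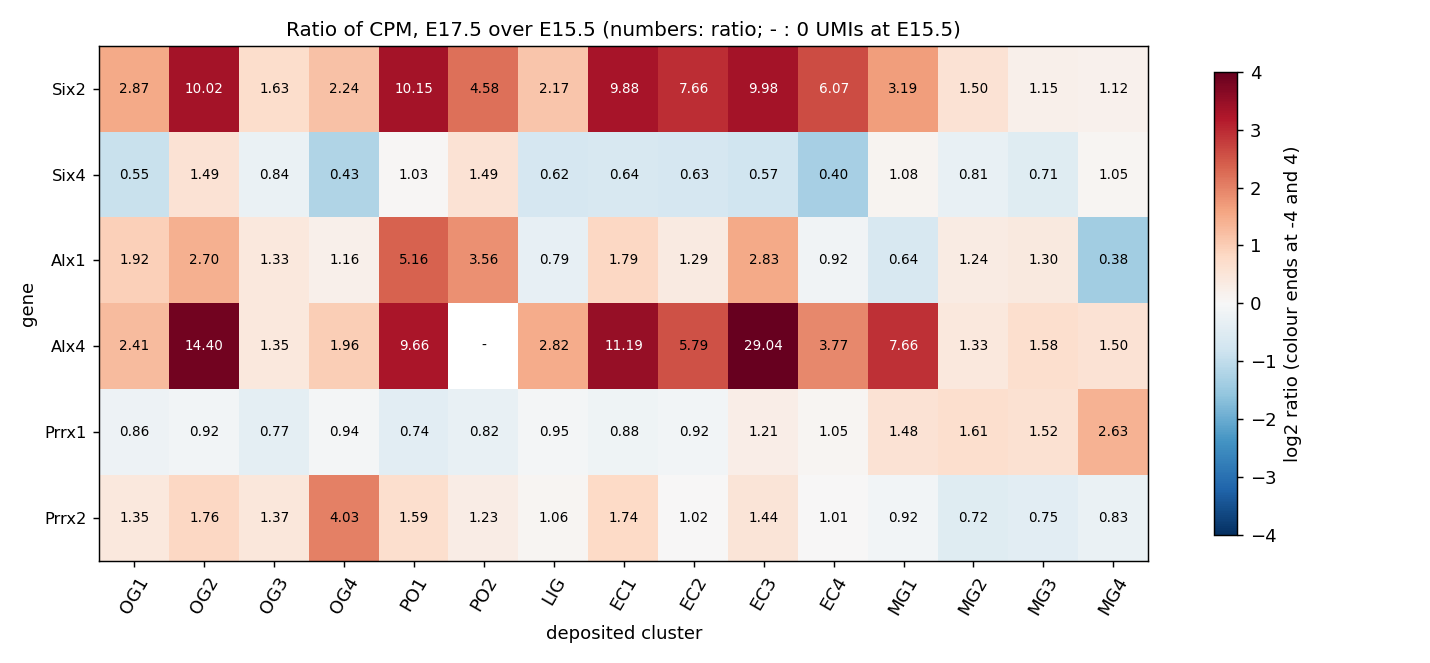
Ratio of the level at E17.5 to that at E15.5 for each gene (rows) and deposited cluster (columns); the numbers are ratios of CPM and the colour is their log2, from lower (blue) to higher (red) at E17.5. The Six2 and Alx4 rows are above 1 in every cluster with UMIs at E15.5, while the Prrx1 row is below 1 across the osteogenic clusters and above 1 in all 4 meningeal ones.

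By the mean of each layer, the Six2 ratio between stages was 8.78 in the ectocranial clusters, 3.47 in the osteogenic ones, 2.17 in LIG and 1.55 in the meningeal ones. In OG1 the level went from 14.6 to 41.7 CPM, a ratio of 2.87 [1.96, 4.36], with suffixes between 2.54 and 2.98. Ratios near 10 were found in OG2 (10.0 [4.96, 23.6]), PO1 (10.2 [4.86, 25.5]), EC1 (9.88 [4.73, 23.9]) and EC3 (9.98 [5.94, 17.2]), where the E15.5 levels were from 1.95 to 3.43 CPM. Those E15.5 levels were at or below the 3.91 CPM [2.19, 6.45] measured in myeloid-like cells of the same library, as they were in 7 of 15 clusters, so expression of Six2 there at E15.5 could not be told from background. The ectocranial and osteogenic layer ratios share this limit. No ectocranial cluster was clear of that background at E15.5, nor was any osteogenic one but OG1 and OG3. At E17.5 myeloid-like cells held 4.92 CPM [3.27, 7.11], and 13 of 15 clusters, OG4 and EC4 excepted, lay clear of it. Among meningeal clusters MG1 went from 26.7 to 85.4 CPM, a ratio of 3.19 [1.54, 7.99] from 7 UMIs at E15.5, and MG2 went up by a ratio of 1.502 [1.25, 1.81], while MG3 (1.15 [0.894, 1.47]) and MG4 (1.12 [0.707, 1.83]) had intervals that held 1. In EC1 the suffixes differed most, at 10.2, 42.3 and 32.7 CPM, so the size of that ratio depended on the suffix and was 3.90 with suffix 1 alone.

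Alx4 was higher at E17.5 in 10 clusters. OG1 went from 11.4 to 27.5 CPM, a ratio of 2.41 [1.56, 3.89], OG2 from 1.46 to 21.1 (14.4 [6.48, 39.8]), PO1 from 2.45 to 23.7 (9.66 [4.06, 30.1]) and EC1 from 1.63 to 18.2 (11.2 [4.46, 36.1]). PO2, with 0 UMIs at E15.5, was at 29.0 CPM at E17.5. This is 4.68 times the level that 3 counts would give at E15.5, which is a floor and not a lower limit of the ratio. EC3 had the largest ratio, 29.0 [8.31, 156], from 3 UMIs at E15.5 and 16 in the later library, and 0 of those 16 came from suffix 3. In MG2, MG3, MG4 and OG3 the intervals held 1. The background in myeloid-like cells was 2.35 CPM [1.07, 4.45] at E15.5 and 5.10 [3.41, 7.32] at E17.5. At E15.5 only 5 of 15 clusters lay clear of it. Of the clusters higher at E17.5, only OG1 and LIG were among them. OG2, OG4, PO1, EC1, EC2, EC3, EC4 and MG1 were not, so that their ratios start from levels not told from background. At E17.5 EC2 and EC3 were not clear of it. Sp7 also differed in EC1, from 2.93 to 110 CPM, and in OG2, from 4.14 to 172 CPM, while in myeloid-like cells it went from 3.13 to 8.78 CPM. Whether the cells under one label were in the same state at both stages was not tested.

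Alx1 was higher at E17.5 in 4 of 6 osteogenic, 3 of 4 ectocranial and 2 of 4 meningeal clusters. PO1 went from 10.3 to 53.1 CPM (5.16 [3.33, 8.44]), PO2 from 22.7 to 80.9 (3.56 [1.93, 7.31]), EC3 from 27.2 to 77.2 (2.83 [2.31, 3.46]), OG2 from 17.3 to 46.8 (2.70 [2.09, 3.54]) and OG1 from 48.4 to 92.7 (1.92 [1.55, 2.39]). The E15.5 levels of PO1, PO2 and OG2 were not clear of the 16.7 CPM [12.8, 21.3] in myeloid-like cells. MG2 (1.24 [1.08, 1.43]) and MG3 (1.30 [1.08, 1.57]) were also higher, while OG3 (1.33 [0.968, 1.87]) and OG4 (1.16 [0.791, 1.75]) had intervals that held 1. LIG went the other way, from 89.5 to 70.9 CPM (0.792 [0.695, 0.904]), as did MG4, from 67.7 to 25.8 (0.381 [0.249, 0.584]). The suffixes with 20 or more MG4 cells held 26.8 and 19.1 CPM. In all, 9 clusters were higher, 2 lower and 4 had intervals that held 1.

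The Prrx paralogs differed between stages in opposite directions in the osteogenic layer and in part of the meninges. Prrx1 was lower at E17.5 in 5 of 6 osteogenic clusters, where the mean of the layer went from 410 to 341 CPM, and higher in 4 of 4 meningeal clusters, from 150 to 263 CPM. Its background in myeloid-like cells was also lower at E17.5, at 30.0 CPM [25.7, 34.9] after 67.5 [59.5, 76.3] at E15.5. What part of the osteogenic difference goes with that background was not tested. Prrx2 was higher in 6 of 6 osteogenic clusters, from 163 to 250 CPM, and lower in 2 of 4 meningeal clusters, from 204 to 163 CPM, with MG1 and MG4 holding 1 in their intervals. In the ectocranial layer the means of both were higher, by ratios of 1.03 for Prrx1 and 1.26 for Prrx2, and EC3 was higher for both (1.21 and 1.44). The layer was split for Prrx1, with EC1 (0.883) and EC2 (0.923) lower and EC3 and EC4 higher. The largest single ratios were in MG4 for Prrx1, from 123 to 325 CPM (2.63 [2.09, 3.36]), and in OG4 for Prrx2, from 37.0 to 149 CPM (4.03 [3.16, 5.23]), where the suffixes gave 134, 151 and 153 CPM. In PO1, Prrx1 went from 458 to 339 CPM (0.740 [0.686, 0.799]) and Prrx2 from 175 to 277 (1.59 [1.42, 1.78]). LIG and EC2 differed little for Prrx2, at ratios of 1.06 [0.958, 1.18] and 1.02 [0.908, 1.14]. For Prrx1 in EC3 and EC4 the suffixes did not share 1 direction, with ratios from 0.904 to 1.37 and from 0.861 to 1.14. Nor did they for Prrx2 in EC3, with ratios from 0.919 to 1.76.

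Six4 was lower at E17.5 in 4 clusters and had intervals that held 1 in the other 11. The 4 were OG1, from 9.36 to 5.10 CPM (0.545 [0.318, 0.980]), OG4 (0.431 [0.259, 0.742]), EC2 (0.628 [0.427, 0.914]) and EC4 (0.399 [0.197, 0.769]). Its background in myeloid-like cells was also lower at E17.5, at 0.527 CPM after 3.65 at E15.5. Of the 4 clusters, OG1 and EC4 were not clear of that background at E15.5. What part of these differences goes with the background was not tested.

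The genes whose pattern over the 15 clusters was most like that of each member were ranked by the lower of their Pearson correlations in the 2 libraries, over log2(CPM + 1). These are descriptions over 15 points that share 1 library and its depth. For Six2 they were Foxc1 (r = 0.92 at E15.5 and 0.88 at E17.5), Lmo4 (0.92 and 0.88) and Sesn3 (0.93 and 0.85). Foxc1 is a forkhead factor required for meningeal and skull vault development. For Six4 they were Pld3, Rhobtb1 and Obsl1, each with a lower value of 0.86. For Alx1 they were Ltbp4, Rassf8 and Slc40a1 (lower values 0.77 to 0.79), for Alx4 Galnt10, Hip1 and Foxk1 (0.82 to 0.85), for Prrx1 Pik3r1, Gorab and Ctsc (0.78 to 0.80), and for Prrx2 Tpm2, Impdh2 and Gnb4 (0.81 to 0.85). Between members, Six2 and Alx1 had 0.74 and 0.63, and Six2 and Prrx1 had -0.67 and -0.34. Alx4 and Prrx2 had 0.26 at E15.5 and 0.85 at E17.5. Prrx1 and Prrx2 had -0.09 and -0.04. The pattern of a gene at E15.5 correlated with its own pattern at E17.5 at 0.88 for Prrx1, 0.86 for Six4, 0.83 for Six2, 0.58 for Prrx2, 0.45 for Alx1 and 0.30 for Alx4.

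After thinning, a labelled cell held UMIs of a mean of 1.16 of the 6 genes in the E15.5 library and of 1.38 in the E17.5 library. LIG cells were seldom without any, at 3.53% and 2.81%, whereas 55.7% of OG4 cells in the earlier library and 33.4% in the later one had none. OG1 at E17.5 had the highest share of cells with 3 or more of the genes, 16.8% of 1010, against 6.44% of 233 at E15.5. MG1 and MG2 followed at E17.5, at 13.9% and 13.7%. LIG had the highest share at E15.5, 13.1%. Over all labelled cells the shares were 4.46% at E15.5 and 9.82% at E17.5.

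Among 11 related homeobox genes and partners, 5 had enough UMIs in both libraries for the same calls. Of these, 2 were called in at least 1 cluster, and between stages 1 was past 1.5-fold upward and 1 downward. Over all genes tested the shares were 16.4% called somewhere, 8.55% upward and 13.6% downward, and 5 genes are too few to set against them. The Eya genes encode co-activators of Six2 and Six4. Eya1 was called in MG2, at 29.3 and 26.9 CPM, and in OG1, at 10.4 and 14.6, and Eya2 in MG2, MG3 and MG4. Eya2 was the gene past the limit upward, from a mean of 11.02 to 16.7 CPM (1.51 [1.26, 1.82]). Shox2 was the one downward, from 48.6 to 14.6 CPM (0.301 [0.275, 0.329]), going from 51.0 to 0.669 CPM in OG1 and from 97.7 to 0.631 in OG2. The ectocranial clusters were split, with EC1 (from 71.5 to 23.3 CPM) and EC4 (from 71.8 to 31.6) lower and EC2 (from 91.0 to 87.3) and EC3 (from 65.7 to 57.4) with intervals that held 1. Eya4, with too few UMIs at E17.5 to enter the counts, went from a mean of 10.3 to 0.9496 CPM and was lower in 12 clusters. Six3 and Six6 had at most 1 UMI in the labelled cells of either library, and Pitx1 had 3 at E15.5 and 0 at E17.5.

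**Figure D3:**
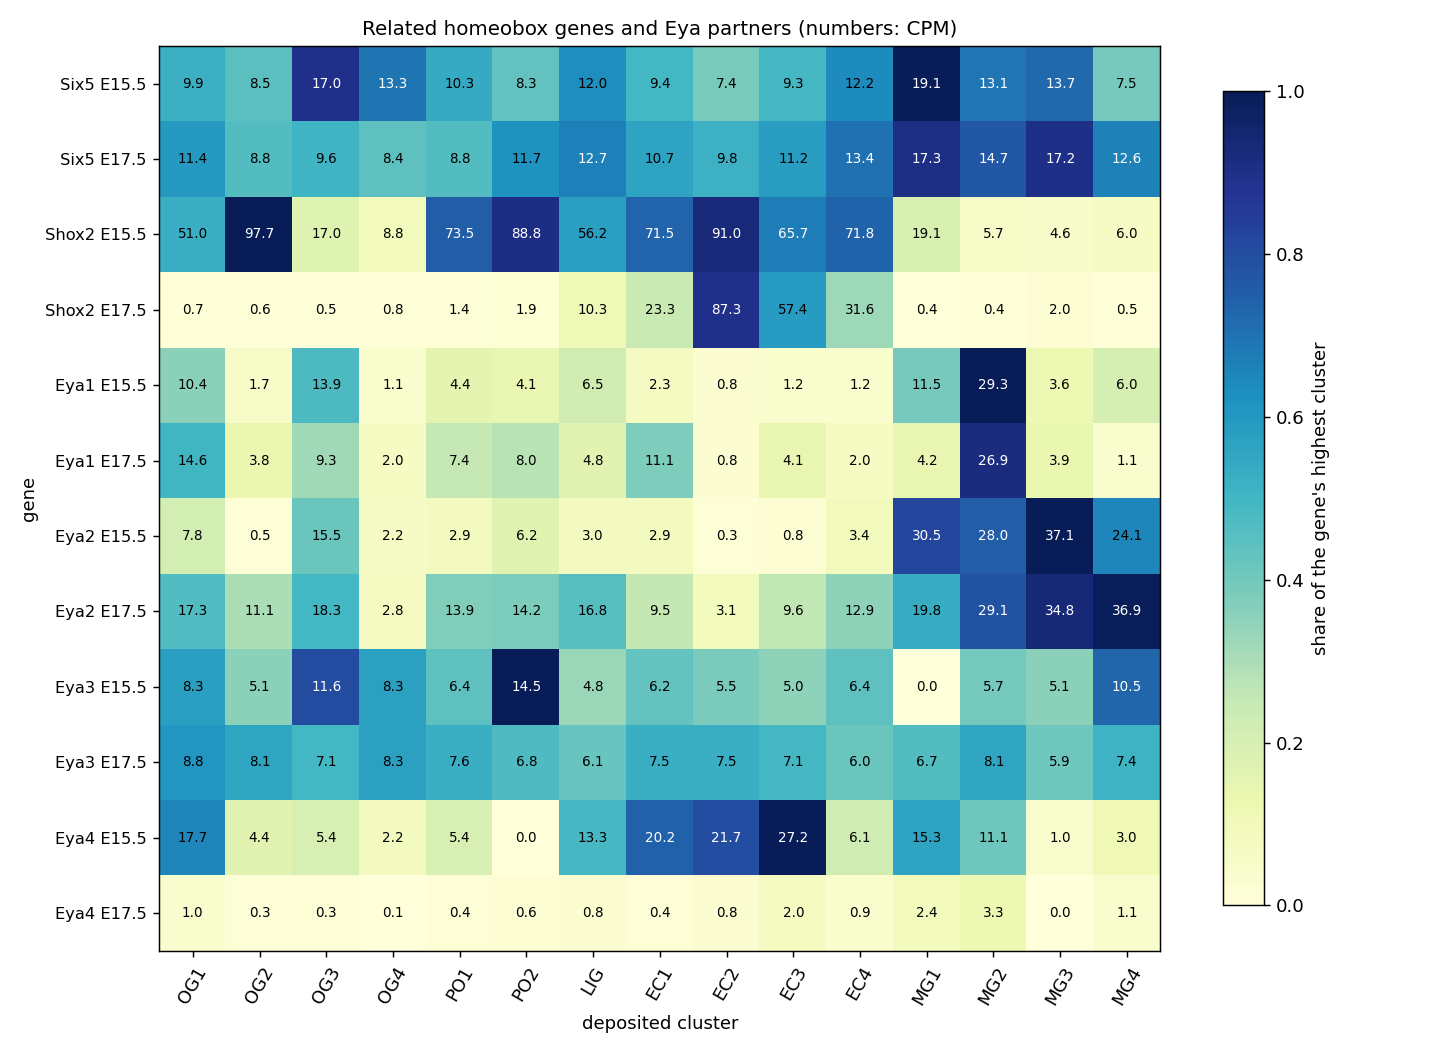
Level of related genes (rows, 1 for each gene and stage) in the 15 deposited clusters; the numbers are CPM and the colour is the level as a share of that gene's highest cluster over both stages. Eya2 is darkest in meningeal columns, and Shox2 is pale in the osteogenic columns at E17.5.

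Cells inside the filters without a deposited label (2875 from E15.5, 1937 from E17.5) were grouped and named from cell type markers. Summed over all cells of a type, chondrocyte-like cells held the highest Alx1 of the named types, 154 CPM [147, 161] in 975 cells of the earlier library and 292 [274, 312] in 317 of the later one, above the highest labelled cluster in each library. Their Six2 was 32.9 CPM [29.6, 36.4] and 60.5 [52.3, 69.6], and their Prrx2 28.2 and 102 CPM. The 5 chondrocyte-like clusters at E15.5 ranged from 95.8 to 196 CPM for Alx1, and the 2 at E17.5 were at 268 and 321. Different clusters hold this class in the 2 libraries, since 1 of those at E17.5 was led by Prg4 and Clu while the E15.5 clusters led by these genes stayed unnamed, with 171 and 234 CPM of Alx1. A pericyte-like cluster of 31 cells at E15.5 held 249 CPM [187, 324], and its 10 leading genes included none of the pericyte markers. Pericyte-like cells held Prrx1 at 554 CPM [526, 584] and 485 [457, 514] and Six2 at 10.0 and 12.4 CPM. Myeloid-like, mast cell-like and osteoclast-like cells had at most 8.50 CPM of Six2 and 16.7 of Alx1, and their Prrx1 was between 25.5 and 67.5 CPM.

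**Figure D4:**
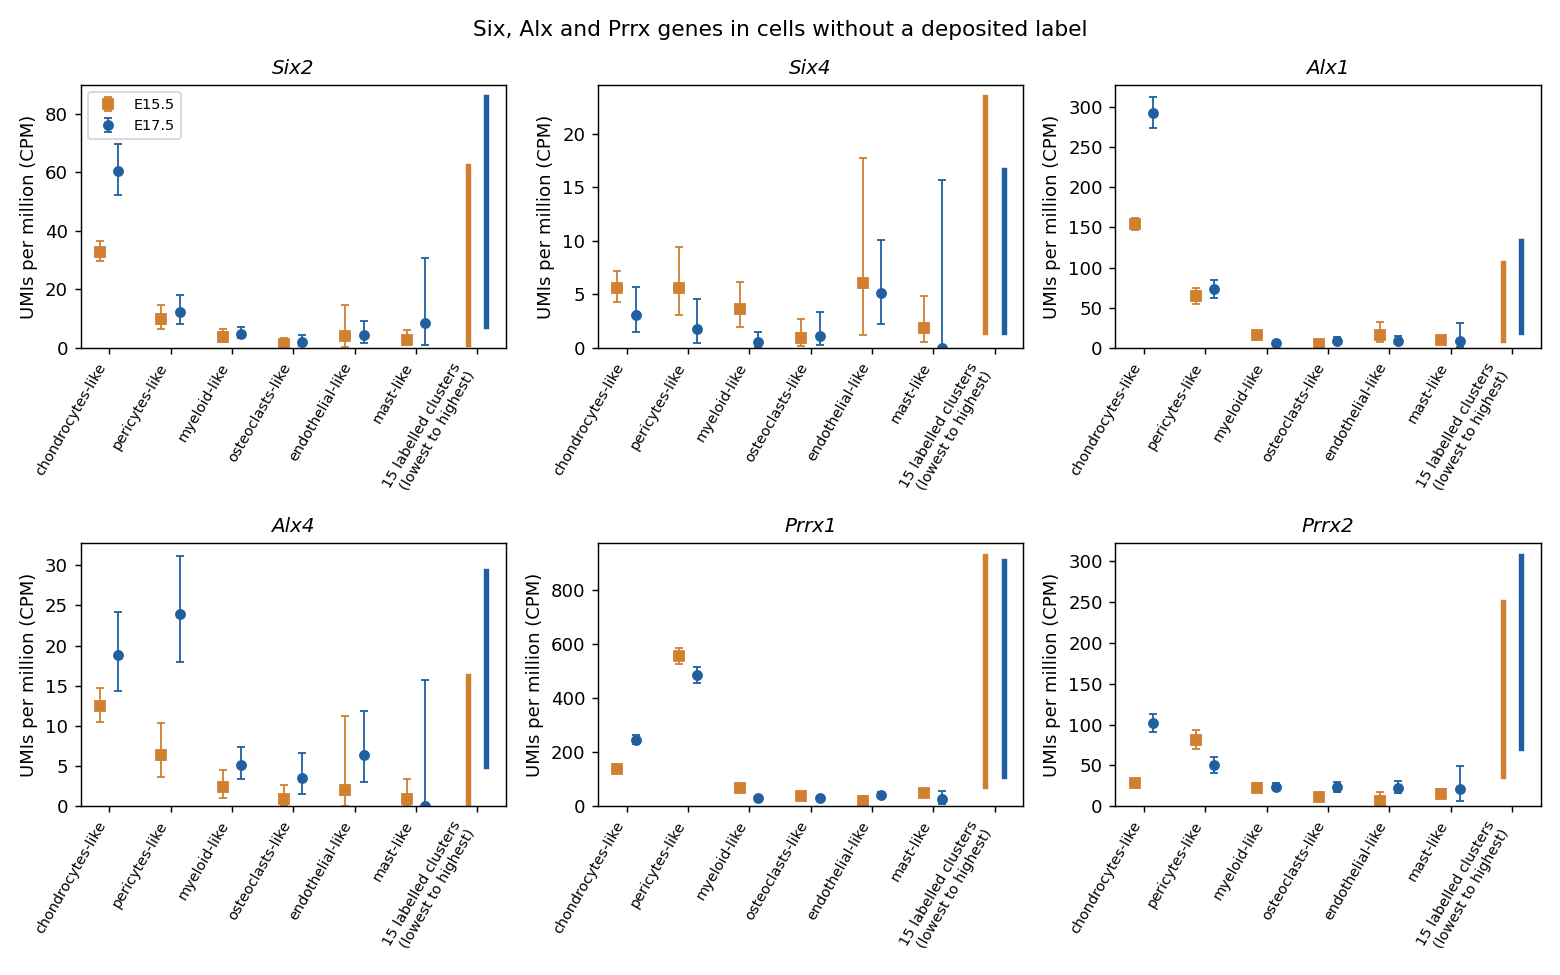
Level of each gene (CPM, linear axes from 0) in unlabelled cell types named from markers, at E15.5 (squares) and E17.5 (circles) with exact 95% Poisson intervals; vertical bars give the range from the lowest to the highest of the 15 labelled clusters. Alx1 in chondrocyte-like cells lies above the whole labelled range at both stages.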

How the data were processed

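Single cells of wild-type mouse coronal sutures were profiled by the authors with 10x 3′ chemistry at E15.5 (1 matrix) and E17.5 (1 matrix joining 3 barcode suffixes), with no replicate. The authors deposited UMI counts per gene and cell from Cell Ranger on mm10, and a table of cluster labels made with Seurat 3.2.0. The header of the E15.5 matrix and the methods name different Cell Ranger versions. Cells were kept with a label, or with 1000 or more UMIs and genes, mitochondrial UMIs up to 7.5% and up to 3% of either haemoglobin family (8210 and 8767 cells, of which 93 labelled E15.5 cells were outside the limits). Counts were summed per cluster, and depth sets the width of the intervals.

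Unlabelled cells were clustered (scanpy 1.11.5, 2000 variable genes less the members and related genes, 30 components, Leiden resolution 1) and named when at least 3 fixed markers were 2-fold up and found in 25% of cells, the last condition being set after the data were seen. Doublets were not removed, and leaving out high Scrublet scores (94th percentile) was an alternative. Genes named are the 6 members, a list of related genes, Erg, Pthlh, Runx2 and Sp7, and the 3 most similar genes of each member. Some genes of the related list are not reported here, and counts over it leave them out. Prg4 and Clu were named after their values were seen. The members and lists were chosen with earlier results of these data known. Ratios and calls were tested on simulated data. Promoters are from RefSeq (GRCm38.p6) and positions from GENCODE (GRCm38), the mouse build matching mm10.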

Additional observations from a re-analysis of the deposited data

Results flagged for a closer look

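3 genes had stage ratios that went opposite ways in different clusters, in the pooled E17.5 library and in every barcode suffix with at least 20 cells. The difference between clusters was not tested. Alx1 was higher at E17.5 in 9 clusters, most in PO1 (ratio 5.16), and lower in 2, most in MG4 (0.381). Prrx1 was higher in 4 clusters, most in MG4 (2.63), and lower in 7, most in PO1 (0.74). Prrx2 was higher in 7 clusters, most in OG4 (4.03), and lower in 2, most in MG2 (0.715). MG4 at E15.5 held 64 cells and OG4 190, so counting error is wider there.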

How the results depend on the processing

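No paired analysis was possible because each stage has 1 library and the labels share no replicate numbers. The number of enriched gene and cluster pairs was 8 and stayed between 6 and 11 under 11 of 12 alternatives, but with mean UMIs per cell only 5 of the 8 were shared (Alx1 in MG2 and both Prrx1 pairs lost, Prrx2 in PO2 gained). It was 5 with shares of thinned cells, where Six2 and Alx1 in MG3 were lost and Six4 in MG4 gained. Both Prrx1 pairs were lost too, which says nothing of their levels, since a share of 91.5% in LIG cannot be 2 times that of most other clusters. Six2 in MG1 was lost with the other clusters weighted equally, and with suffix 1 alone, which held no MG1 cells. The ratio of Six2 in OG1 to other labelled cells was 0.866 at E15.5 with the other clusters weighted equally, which turned its direction. At E17.5 it was 1.16 with mean UMIs per cell, 1.18 with thinned shares, 1.69 with suffix 1 alone and 1.18 with equal weights. The number of genes past 1.5-fold between stages was 2, and 4 with all labelled cells pooled, where Alx4 reached 4.62, Six2 3.13, Prrx2 1.56 and Six4 0.649. It was 3 without clusters under 100 cells and with suffix 1 alone. The stage ratio of Prrx1 turned below 1 with pooled cells (0.886), the median over clusters (0.945), small clusters left out (0.967), the median ratio over genes divided out (0.997) and suffix 1 alone (0.873). The cause of these changes was not tested. Levels in unlabelled cell types moved beyond their counting interval in 6 of 168 comparisons at other Leiden resolutions.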
